A study of Mus musculus with 4 samples.

Results

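The genes described here are 10 transcription factors used as identity genes of spinal dorsal horn neurons: Lmx1b, Tlx3, Ebf2, Maf, Pax2, Pax8, Gbx1, Meis2, Rorb and Sall3. They were taken by gene symbol from the 32285 genes of the deposited count tables, and all 10 were found. Raw unique molecular identifiers (UMIs, each standing for 1 captured RNA molecule) were read out in excitatory and in inhibitory neurons of every library, and pairs of the factors were looked for within single nuclei. The study profiled single nuclei of the microdissected mouse spinal dorsal horn in 4 libraries, 1 for each group: naive wild type (Gpr37l1+/+), naive knockout (Gpr37l1-/-, KO), wild type 1 day after spared nerve injury (SNI), and KO 1 day after SNI. SNI cuts branches of the sciatic nerve and leaves 1 branch intact, and Gpr37l1 encodes an orphan G protein-coupled receptor of glia. Values given as a series of 4 follow the order wild type naive, KO naive, wild type SNI and KO SNI. The labels leave out the number, age and sex of the animals and any pooling of them. With 1 library per group no difference could be tested, and the 95% intervals cover counting error only, not the spread between animals.

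The labels disagree on treatment. Groups follow the sample titles, which match the library names, whereas the treatment tag calls the KO naive library injured and the wild type SNI library naive; if the tags held, genotype and injury could not be told apart. The KO SNI library alone is labelled total RNA in place of polyA RNA. Gpr37l1 itself gave 132, 0, 221 and 2 UMIs in astrocyte-like nuclei, so it followed the genotype labels. The libraries held 19942 to 37552 barcodes and 35197290 to 69572640 UMIs, and 17798 to 33786 nuclei were used after filters. Of 111453 distinct barcodes, 1290 occurred in more than 1 library. Clusters with no class name held 4.37%, 21.2%, 24.4% and 9.34% of nuclei, among them 1 cluster with 14.1% and 17.2% of the KO naive and wild type SNI libraries against 0.489% and 0.924% of the other libraries. In the neuron classes described below, summed markers of sensory ganglion neurons were at 0.636 to 1.58 and those of ventral interneurons at 0.457 to 2.70 per 1e+06 UMIs.

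Dorsal horn neurons are either excitatory, releasing glutamate, or inhibitory, releasing GABA, glycine or both. In the embryo, Lmx1b and Tlx3 mark and maintain the late-born excitatory neurons, whereas Pax2 and Pax8, which belong to 1 subfamily of paired-box factors, mark the inhibitory neurons, and Pax2 is needed for their transmitter programme. Gbx1 is a homeobox factor of inhibitory neurons, and Ebf2 is a helix-loop-helix factor of the early B-cell factor family. Maf, a large Maf basic leucine zipper factor, Meis2, a homeobox cofactor of Hox proteins, Rorb, an orphan nuclear receptor, and Sall3, a spalt-family zinc finger protein, divide neurons further by layer and type. Several of these factors are also expressed in glia.

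Promoter sequences are shown for the 2 factors that define the excitatory side and the 2 paired-box factors of the inhibitory side. Each is the stretch of 250 bases before a RefSeq start site on build GRCm38.p6, written 5′ to 3′ on the gene's strand, with capitals marking matches to the motifs searched: TAATTA (a homeodomain core), CAGCTG (an E-box), CCAAT and TATAAA. Both strands were searched and no matches overlapped.
Lmx1b, chr2:33641099-33641348, minus strand: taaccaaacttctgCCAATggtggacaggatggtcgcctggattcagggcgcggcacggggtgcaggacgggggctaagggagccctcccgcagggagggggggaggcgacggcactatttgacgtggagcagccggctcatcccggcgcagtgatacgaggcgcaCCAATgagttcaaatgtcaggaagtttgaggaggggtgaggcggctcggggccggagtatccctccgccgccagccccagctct
Tlx3, chr11:33203589-33203838, minus strand: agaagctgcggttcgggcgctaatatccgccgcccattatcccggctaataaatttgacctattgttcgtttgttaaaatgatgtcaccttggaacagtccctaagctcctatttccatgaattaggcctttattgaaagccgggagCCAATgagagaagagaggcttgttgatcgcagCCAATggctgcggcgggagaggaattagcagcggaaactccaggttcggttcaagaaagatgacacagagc
Pax2 start site 2, chr19:44755502-44755751, plus strand: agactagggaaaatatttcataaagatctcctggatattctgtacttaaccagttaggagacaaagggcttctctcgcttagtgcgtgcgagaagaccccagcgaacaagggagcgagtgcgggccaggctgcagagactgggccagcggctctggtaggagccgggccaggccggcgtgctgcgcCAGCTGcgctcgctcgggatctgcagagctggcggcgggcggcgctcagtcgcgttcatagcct
Pax8, chr2:24475600-24475849, minus strand: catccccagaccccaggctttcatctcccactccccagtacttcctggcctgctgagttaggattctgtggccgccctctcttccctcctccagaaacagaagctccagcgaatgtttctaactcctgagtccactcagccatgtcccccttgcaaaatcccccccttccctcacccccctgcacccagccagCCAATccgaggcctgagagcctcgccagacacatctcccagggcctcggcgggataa
The Lmx1b window shared 156 bases with C130021I20Rik, an antisense gene, in exons of that gene, and the Pax8 window lay wholly inside Gm13415 but in none of its exons (GENCODE vM21). The Tlx3 window shared 1 base with the first exon of Tlx3, and the Pax2 window lay in no annotated gene. The table of promoters held 6 of the 10 factors with 9 start sites. CCAAT occurred in 5 of these 9 windows, against 33.8% of all 32851 promoter windows of that length. CAGCTG occurred only in the Pax2 window shown, against 4271 of the 32851 windows, and TATAAA only in that of Meis2, against 12.4%. TAATTA was in none of the 9, against 4.84% of all windows. GC content was 65.2% for Lmx1b, 48.8% for Tlx3, 60.8% for Pax2 and 60.4% for Pax8, with a median of 52.4% over all windows. These letters describe the windows only. On the same build, per GENCODE vM21, the genes themselves lie at chr2:33560965-33640511 (Lmx1b), chr11:33200752-33203589 (Tlx3), chr14:67233292-67430918 (Ebf2), chr8:115682942-115707794 (Maf), chr19:44756045-44837871 (Pax2), chr2:24420560-24475599 (Pax8), chr5:24502757-24527202 (Gbx1), chr2:115863064-116065839 (Meis2) and chr19:18930605-19111196 (Rorb).

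The 10 factors split by transmitter. Lmx1b, Tlx3, Ebf2 and Meis2 were at least 2-fold higher in excitatory than in inhibitory neurons in all 4 libraries, and Pax2, Pax8, Gbx1, Rorb and Sall3 were at least 2-fold higher in inhibitory neurons in all 4. Maf alone was at nearly the same level in both. Excitatory and inhibitory neuron-like clusters, called excitatory and inhibitory neurons from here on, were named from transmitter markers. The 10 factors were not among these markers and were also left out of the genes used for clustering. The limits used in naming were, however, set after factor levels had been seen. The classes were thus not set blind to the factors, and the shares of all genes given below are a description only. The classes held 4721, 8011, 4828 and 6669 excitatory nuclei and 2325, 3700, 2316 and 3167 inhibitory nuclei. Levels are CPM, the gene's UMIs scaled to a class total of 1e+06 UMIs in its library. By the same rule 1.74% of 13252 genes with at least 200 neuronal UMIs were higher in excitatory neurons and 1.2% in inhibitory neurons, together 2.94%, against 4 and 5 of the 10 factors. With classes set nucleus by nucleus from transmitter UMIs, over all kept nuclei with glia included, 1 and 3 factors met the rule, with log2 ratios of 1.02 to 1.84 for Lmx1b and -2.63 to -1.39 for Pax2.

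Lmx1b, needed for differentiation of excitatory neurons, was at 118, 96.1, 107 and 117 CPM in excitatory neurons, from 931, 1510, 989 and 1167 UMIs. In inhibitory neurons it was at 7.08, 11.2, 7.97 and 8.87 CPM, from 31, 86, 38 and 45 UMIs. The ranges of both classes did not overlap, and the ratio was 8.61-fold to 16.6-fold, with a median log2 ratio of 3.73. Tlx3, a homeobox selector of the glutamatergic fate, rested on 729 neuronal UMIs in all. It had 114, 218, 165 and 144 UMIs in excitatory neurons, or 14.4, 13.9, 17.9 and 14.4 CPM. In inhibitory neurons 15, 27, 18 and 28 UMIs gave 3.43, 3.50, 3.78 and 5.52 CPM. The Tlx3 ratio of 2.60-fold to 4.74-fold was smallest in the KO SNI library, where its log2 interval ran from 0.79 to 2.02.

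Ebf2 reached 989, 812, 781 and 862 CPM in excitatory neurons and 127, 186, 136 and 127 CPM in inhibitory neurons. These levels rested on 39692 neuronal UMIs, and the ratio lay between 4.37-fold and 7.79-fold. Meis2 was at 135, 149, 139 and 156 CPM in excitatory neurons against 19.6, 49.2, 29.8 and 28.8 CPM in inhibitory neurons. The inhibitory level of Meis2 varied more than the excitatory one, with wild type naive lowest and KO naive highest, and the ratio ran from 3.02-fold to 6.86-fold.

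Pax2 had the opposite order to Lmx1b, at 226, 200.5, 226 and 214 CPM in inhibitory neurons. In excitatory neurons it was at 10.4, 29.1, 14.1 and 19.1 CPM, from 82, 458, 130 and 191 UMIs. The inhibitory excess was 6.88-fold to 21.8-fold, least in the KO naive library. Pax8 was at 107, 76.0, 75.5 and 95.6 CPM in inhibitory and 5.56, 8.85, 5.21 and 6.09 CPM in excitatory neurons, an excess of 8.59-fold to 19.2-fold. Gbx1 was at 34.95, 23.9, 31.5 and 37.7 CPM in inhibitory neurons, from 153, 184, 150 and 191 UMIs, and at 3.49 to 5.31 CPM in excitatory neurons. Its excess of 6.58-fold to 10.8-fold left no overlap between the classes.

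Sall3 was at 93.4, 72.8, 77.8 and 84.2 CPM in inhibitory and 6.32, 9.80, 7.59 and 8.49 CPM in excitatory neurons, 7.43-fold to 14.8-fold apart. Rorb was at 657, 485, 586 and 529.8 CPM in inhibitory and 124, 116, 126 and 123 CPM in excitatory neurons, 4.19-fold to 5.28-fold apart. Rorb was present on both sides, with 983, 1820, 1162 and 1234 UMIs in excitatory neurons. Maf, which marks deep dorsal horn neurons of both transmitters, was at 126, 116, 130 and 128 CPM in excitatory and 99.6, 109, 123 and 126 CPM in inhibitory neurons. Its median log2 ratio was 0.08, and the interval excluded 0 in wild type naive alone, where the log2 ratio was 0.34 (0.18 to 0.51).

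**Figure D1:**
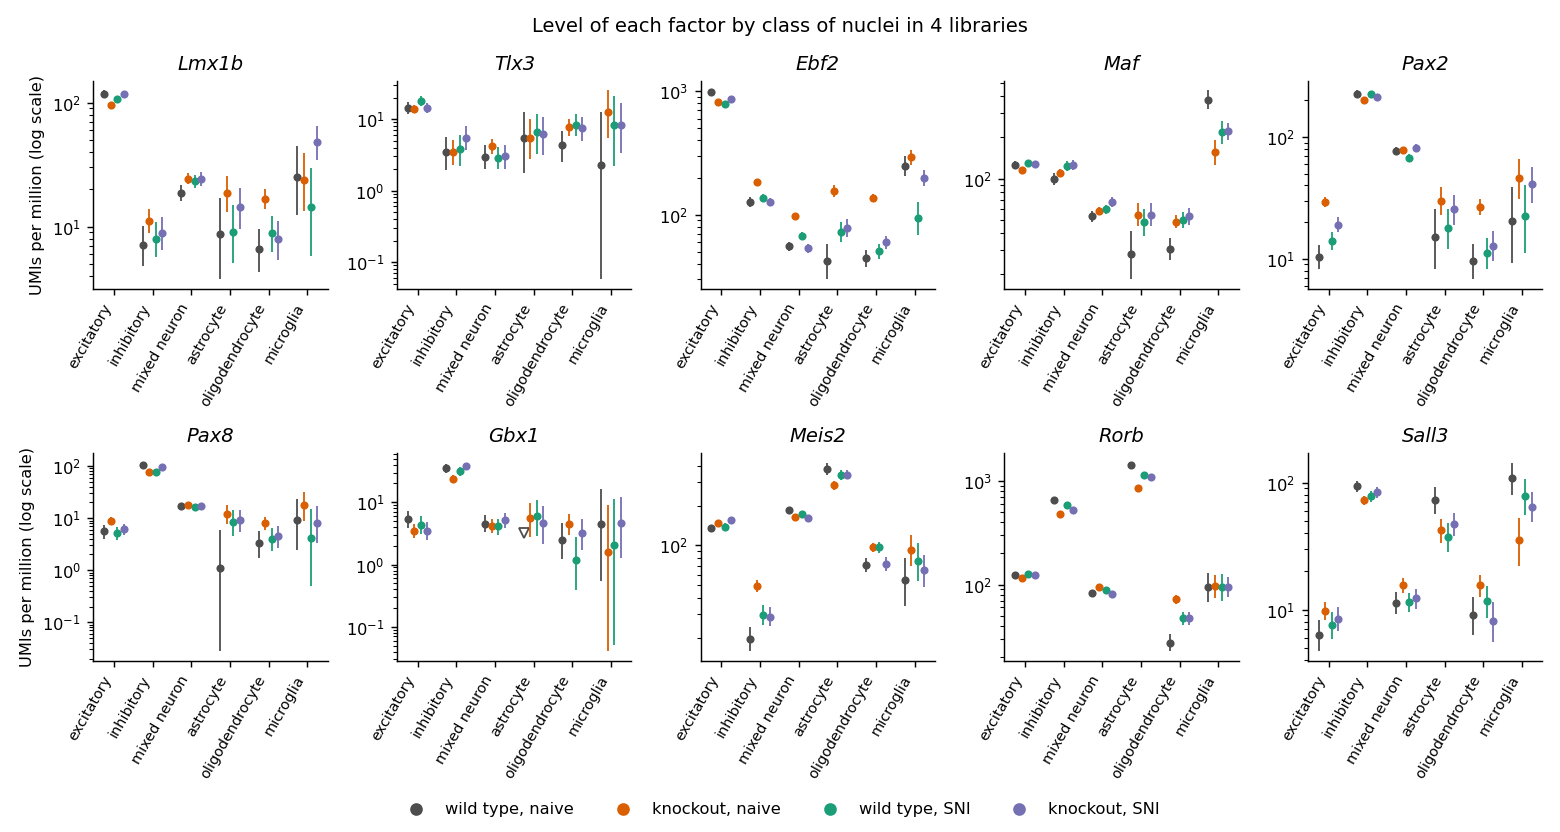
Level of each of the 10 factors in CPM on a log axis, 1 panel per gene, for excitatory, inhibitory and mixed neurons, astrocytes, oligodendrocytes and microglia in each of the 4 libraries, with exact Poisson 95% intervals and an open triangle at the floor of 3 UMIs where none was counted. Lmx1b sits at 96.1 to 118 CPM in excitatory neurons and at 7.08 to 11.2 CPM in inhibitory neurons, and Pax2 shows the opposite order.

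**Figure D2:**
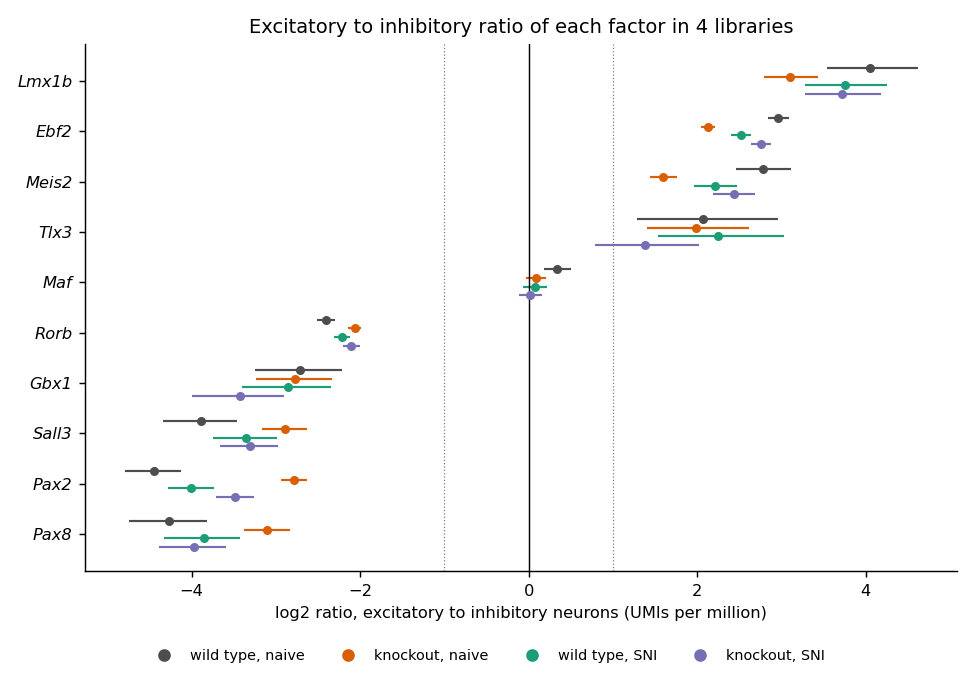
Log2 ratio of the excitatory to the inhibitory level for each factor and library, with exact conditional binomial 95% intervals. The points of 4 factors lie between 1.38 and 4.05 and those of 5 between -4.45 and -2.07 in all 4 libraries, and Maf lies between 0.02 and 0.34.

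The KO naive library had the smallest ratio for 7 of the 9 factors that split the classes. The KO SNI library had it for Tlx3 and the wild type naive library for Gbx1. Which library had the smallest ratio was not counted over all genes, so this may not be particular to the factors. Ratios still passed 2-fold in KO naive for all 9, with log2 values from 1.60 for Meis2 to 3.11 for Lmx1b on the excitatory side and from -2.07 for Rorb to -3.10 for Pax8 on the inhibitory side.

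Shares of nuclei with a UMI put these levels on a scale of cells. After every nucleus was thinned to 1000 UMIs, Lmx1b was seen in 11.3%, 9.59%, 10.1% and 11.6% of excitatory nuclei, against 0.544%, 1.53%, 0.712% and 0.0973% of oligodendrocyte-like nuclei, a type that should lack it. Unthinned shares were 15.4% to 17.6%, at median depths of 1305 to 1700 UMIs, against 736 to 947 UMIs in oligodendrocytes. Ebf2 was seen in 46.8% to 53.7% of thinned excitatory nuclei, and in 9.05%, 13.7%, 9.07% and 9.68% of inhibitory nuclei against 3.72%, 11.6%, 4.86% and 5.16% of oligodendrocytes. Tlx3 was seen in 1.40% to 2.10% of excitatory nuclei. Its share of 0.281% to 0.548% in inhibitory nuclei was within the 0.0907% to 0.839% of oligodendrocytes and was read as background.

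Pax2 was seen in 18.8%, 17.3%, 18.5% and 18.3% of thinned inhibitory nuclei. In excitatory nuclei its shares were 0.841%, 2.32%, 1.14% and 1.57%, beside 0.544%, 2.81%, 1.10% and 1.26% in oligodendrocytes, so the excitatory share was near background in every library. Rorb was seen in 29.1% to 31.3% of inhibitory nuclei, Pax8 in 6.77% to 10.2%, Sall3 in 7.16% to 8.78% and Gbx1 in 2.78% to 3.73%. Each of these stood above its oligodendrocyte share in all 4 libraries. Of thinned excitatory nuclei 28.2% to 32.8% held a UMI of none of the 10 factors and 48.5% to 52.7% of exactly 1, and of inhibitory nuclei 35.9% to 37.9% held none. In oligodendrocytes the share with none was 87.1%, 67.6%, 79.5% and 80.4%, lowest in KO naive.

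Outside neurons, Rorb and Meis2 were high in astrocyte-like nuclei, at 864 to 1431 CPM and 285 to 382 CPM. Both were above their levels in oligodendrocytes, 27.5 to 71.7 CPM and 71.1 to 97.0 CPM, in every library. Maf was at 156 to 378 CPM in microglia-like nuclei, and Sall3 at 35.05 to 109 CPM there and 37.2 to 72.7 CPM in astrocytes. UMIs of these 4 factors were therefore not limited to neuron nuclei in these libraries. In microglia-like nuclei Ebf2 was also at 94.3 to 292 CPM, beside 127 to 186 CPM in inhibitory neurons. Lmx1b was at 14.4 to 48.2 CPM and Pax2 at 20.4 to 46.2 CPM in microglia-like nuclei. How much of these UMIs came from the nuclei themselves was not tested.

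The class ratio was also taken for other factor genes of the dorsal horn. Of 20 excitatory lineage factors, 8 had at least 200 neuronal UMIs, and 1 of them, Pou4f1, a POU factor, was higher in excitatory neurons with a median log2 ratio of 1.89. Neurod2 was listed with them but was higher in inhibitory neurons, with a median of -2.33 and levels of at most 9.47 CPM. Drgx was searched under that name and not found, and Prrxl1, the older symbol of that gene, is listed in the tables. Of 15 inhibitory lineage factors 4 passed the minimum, and 2 of them, Lhx5 and Lhx1, LIM homeobox factors of inhibitory progeny, were higher in inhibitory neurons with medians of -2.63 and -2.59. Of 14 other paralogues of the 10 factors 4 passed, and Meis1 was the 1 that split, at 2.78 towards excitatory neurons, the side of its paralogue Meis2. Of 29 further laminar and adult factors 28 passed, and 3 (Casz1, Satb1, Pbx3) were higher in excitatory and 2 (Nr2f2, Bcl11b) in inhibitory neurons. Of 21 transmitter and peptide genes 20 passed, with 4 higher on each side, but 5 of those 8 had named the classes. Among the others were Reln and Nmu. The median log2 ratio over all genes was 0.01.

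Within each class the factors were spread unevenly over clusters, which are named here by number and leading genes. The factors played no part in the clustering, but Maf was among the 10 leading genes of cluster 9, Pax2 of cluster 14 and Gbx1 of cluster 18. There were 8 excitatory clusters (6 with Lmo3, Ptger3 and Grpr; 7 with Aldh1a2, Pou4f1 and Cdh23; 8 with Car12 and Pde11a; 9 with Bmp6 and Adarb2; 10 with Nmu; 12 with Nts and Car8; 20 with Cpne4; 21 with Trhr and Reln). There were 7 inhibitory clusters (13 with Hpse2 and Chrdl1; 14 with Cdh3 and Sema3e; 16 with Nos1 and Gucy2d; 18 with Chrm3 and Tyr; 19 with Corin and Nxph1; 26 with Ndnf and Ecel1; 29 with Rxfp2 and Esr1). A further neuron cluster, 0, with mixed markers belonged to neither class. Over the libraries cluster 9 held 13.5% to 14.6% of excitatory nuclei and cluster 14 held 20.9% to 23.9% of inhibitory nuclei. Some other shares differed beyond their counting intervals. Cluster 7 held 13.1% (12.1 to 14.1) of excitatory nuclei in wild type naive and 16.8% (15.7 to 17.9) in wild type SNI. Cluster 8 held 16.5% (15.4 to 17.5) of them in wild type naive and 13.9% (13.2 to 14.7) in KO naive. Cluster 13 held 20.4% (18.8 to 22.1) of inhibitory nuclei in wild type naive and 24.1% (22.7 to 25.5) in KO naive.

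Maf, level between the classes, was concentrated in 1 cluster of each. Cluster 9 held 62.5% of excitatory Maf UMIs in 14.2% of the nuclei, at 622, 494, 614 and 544 CPM, and the other 7 excitatory clusters lay between 35.04 and 72.6 CPM with the libraries summed. Cluster 14 held 64.6% of inhibitory Maf UMIs in 22.5% of the nuclei, at 289.6, 258, 327 and 300.4 CPM, followed by cluster 13 at 99.3 CPM. So Maf marked 1 cluster on each side in every library.

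Meis2 was held mainly by cluster 7, with 64.0% of its excitatory UMIs in 15.05% of the nuclei. Its level there was 485, 428, 404 and 500.1 CPM, above cluster 9 at 208, 158, 156 and 167 CPM in every library, and the other excitatory clusters were at 39.1 to 52.3 CPM. Ebf2 was lowest in cluster 7, where Meis2 is highest, at 70.8, 141, 76.0 and 78.1 CPM, and highest in cluster 12, at 2032, 1479, 1758 and 1783 CPM, a 17.2-fold span of the summed levels. In inhibitory neurons 58.2% of Ebf2 UMIs came from cluster 14, at 339.6, 371, 334 and 306 CPM, and the other 6 clusters lay at 56.6 to 144 CPM.

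Lmx1b ran through all excitatory clusters, from 59.4 CPM in cluster 9 to 148 CPM in cluster 8, a span of 2.50-fold. Clusters 8 and 21, at 148 and 147 CPM, did not differ beyond the spread of their libraries (133 to 170 and 136 to 172 CPM). Tlx3 was narrower, highest in clusters 12, 10 and 21 at 32.0, 26.6 and 26.5 CPM with overlapping ranges, then cluster 8 at 22.8 CPM. In clusters 6, 7, 9 and 20 Tlx3 was at 5.40 to 8.72 CPM, near the 4.29 to 8.35 CPM of oligodendrocytes. So Lmx1b was found in each excitatory cluster and Tlx3 well above background in 4 of the 8.

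Pax2 was highest in inhibitory clusters 26 and 14, at 391 and 369 CPM with overlapping library ranges, and lowest in cluster 19 at 86.1 CPM. Pax8 was more even, from 57.6 CPM in cluster 18 to 129 CPM in clusters 16 and 26. Gbx1 was highest in cluster 18 at 62.4 CPM, cluster 29 at 53.4 CPM and cluster 19 at 41.6 CPM, and these ranges overlapped between libraries. Sall3 was highest in the same pair of clusters, 29 and 18, at 181 and 119.7 CPM.

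Sall3 was nearly missing from 1 inhibitory cluster. In cluster 26 it gave 1, 2, 3 and 3 UMIs, or 4.81, 6.33, 13.5 and 15.6 CPM, against 313, 105, 172 and 164 CPM in cluster 29. Rorb was high in 4 inhibitory clusters, 18, 29, 13 and 16, at 989, 951, 889 and 694 CPM, and at 58.2 CPM in cluster 19 and 64.9 CPM in cluster 26. On the excitatory side Rorb was at 770.0 CPM in cluster 20 (930.0, 627, 846 and 769.6 by library) and at 262 CPM in cluster 9, while the other 6 lay between 48.8 and 74.1 CPM. Excitatory cluster 20 was thus within the range of the Rorb-rich inhibitory clusters.

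**Figure D3:**
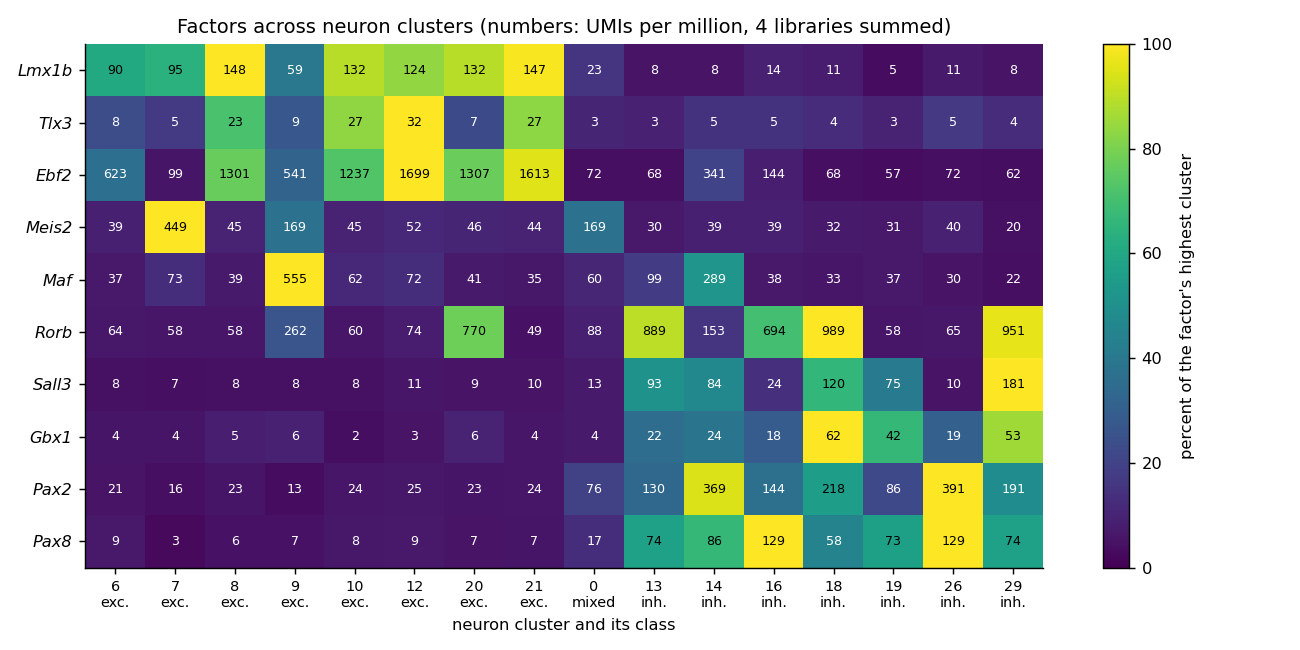
Heat map of the 10 factors over the 16 neuron clusters, with the CPM of the 4 libraries summed printed in each cell and the colour giving it as a percent of the factor's highest cluster. Maf stands out in clusters 9 and 14, Meis2 in cluster 7 and Rorb in clusters 13, 16, 18, 20 and 29.

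The mixed neuron cluster 0 held 3460, 5599, 4341 and 4377 nuclei and carried factors of both sides. Lmx1b was at 18.8 to 24.3 CPM and Pax2 at 67.8 to 81.0 CPM there, each below its own class and above the other class in all 4 libraries. Meis2 was at 161 to 185 CPM in cluster 0, above the 135 to 156 CPM of excitatory neurons.

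Some of the genes whose levels over the 16 neuron clusters were most like those of the factors were their neighbours on the chromosome. Likeness is Pearson's r of log2(CPM + 1) over the clusters with libraries summed, given as a description, since clusters share libraries and depth. For 7 of the 10 factors, 1 or more of the 3 most alike genes lay within 100 kb, which made 10 of 30 genes, and 6 of those overlapped the factor on the opposite strand. How often this holds for genes at large was not counted. All 3 genes most like Ebf2 (1700120O09Rik, r = 0.99; Gm6878, 0.99; 4930438E09Rik, 0.98) were transcripts inside it on the other strand, on chr14 between 67304888 and 67397742. For Pax2 they were Gad2 (0.98), the GABA-synthesising enzyme, and the overlapping antisense genes 1700039E22Rik (0.98) and Gm20395 (0.97). For Pax8 the nearest in pattern was Gm13415 (0.98), the gene that spans the promoter window shown above. The strand setting of the counting is not given in the sources used here, so whether reads of these factors and of their antisense partners were kept apart is not known here.

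Neighbours that do not overlap behaved alike for 4 factors. Gm12116, 465 bases from Tlx3, had r = 0.93, G630016G05Rik, 1385 bases from Meis2, 0.95, Gm27239, 684 bases from Sall3, 0.97, and 4930488N15Rik, 87789 bases from Maf, 0.95. All 4 are non-coding and on the other strand. The 30 neighbours within 100 kb of 9 factors had a median r of 0.67, and protein-coding neighbours ranged from -0.49 for Zbtb43 beside Lmx1b to 0.90 for Atp9b, 32315 bases from Sall3, which ranked 5 of 14620 genes for it. No such median was taken for neighbours of genes at large. Outside the 3 most alike genes, and named after their values were seen, C130021I20Rik, 681 bases from Lmx1b, ranked 18 of 14620 genes for it (0.87), and Agap3, 709 bases from Gbx1, ranked 22 (0.84). The most alike gene lay on another chromosome for Lmx1b, Tlx3, Pax2, Gbx1 and Rorb. For Tlx3 it was Vstm2l (0.95), ahead of its neighbour Gm12116. Lmx1b was most like Cacna2d1 (0.98), a calcium channel subunit, Tmem163 (0.96) and Slc17a6 (0.94), the vesicular glutamate transporter. Gbx1 was most like Kank1 (0.93), Gm27199 (0.92) and Gad1 (0.92), and Rorb like Gm31305 (0.83), Igf1 (0.82) and Tuft1 (0.80). Cacna2d1, Slc17a6, Gad1 and Gad2 were among the markers that named the classes. Further likeness was found between Tlx3 and Prrxl1 (0.92), a homeobox factor of the same neurons, and between Sall3 and Tmod1 (0.94).

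Co-detection asked whether 2 factors were seen in the same nucleus more or less often than the product of their shares, at 1000 UMIs per nucleus. A pair was called where observed and expected differed at least 2-fold in 1 direction in all 4 libraries, among pairs with at least 20 nuclei observed or expected. Over both classes together, 2 pairs were called above and 2 below. How many pairs of genes at large meet this rule was not counted, so these counts are a description only. Pax2 and Pax8 were together in 44, 55, 43 and 55 nuclei, 197 against 71.5 expected, a ratio of 2.76 (2.39 to 3.17). Pax2 and Sall3 were together in 174 against 69.5, a ratio of 2.50 (2.15 to 2.90). Lmx1b and Pax2 met in 3, 22, 4 and 4 nuclei, 33 against 166 expected, a ratio of 0.20 (0.14 to 0.28). Lmx1b and Pax8 met in 13 against 73.6, a ratio of 0.18 (0.09 to 0.30). Most of this followed from the classes: against expectations made cluster by cluster the ratios were 1.203, 1.18, 0.63 and 0.67. The KO naive library held 22 of the 33 nuclei with Lmx1b and Pax2 and 8 of the 13 with Lmx1b and Pax8.

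Within excitatory neurons and within inhibitory neurons no pair met the 2-fold rule. Lmx1b and Ebf2 shared 1219 excitatory nuclei, against 1110 expected (1.10, 1.04 to 1.16) and 1195 cluster by cluster (1.02). Ebf2 and Meis2 shared 497 against 965 (0.52, 0.47 to 0.56), and 552 were expected cluster by cluster (0.90). For Ebf2 and Meis2 the deficit thus lay mostly between clusters. Meis2 and Rorb were the opposite case. They shared 52, 88, 43 and 59 excitatory nuclei, 242 against 158 (1.53, 1.35 to 1.74), and the ratio cluster by cluster was 1.67 (1.47 to 1.89).

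Of these 242 nuclei 144 lay in cluster 9, the Maf cluster, where 52.6 were expected among 3126 thinned nuclei. The ratio was 2.74 (2.31 to 3.23) and lay between 2.44 and 3.39 in the 4 libraries. Maf itself was not part of it: Maf and Rorb shared 151 nuclei of cluster 9 against 181 expected (0.84, 0.71 to 0.98). In 12 excitatory nuclei Pax2 and Pax8 were found together, against 1.86 expected, 8 of them in KO naive; this pair is below that minimum and was named after its values were seen.

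Inhibitory cluster 14 divided its factors in the same way in each library. Ebf2 and Maf, both highest in this cluster among inhibitory clusters, shared 57 of 2492 nuclei against 116 expected, a ratio of 0.49 (0.37 to 0.63) and 0.43 to 0.59 by library. Ebf2 was instead found with Pax2, in 223 nuclei against 176 (1.27, 1.11 to 1.44), and with Rorb, in 99 against 65.4 (1.51, 1.23 to 1.84). Maf was found with Pax8, in 61 nuclei against 39.8 (1.53, 1.17 to 1.97). Maf and Rorb shared 20 against 57.6 (0.35, 0.21 to 0.54), and Ebf2 and Pax8 shared 24 against 44.7 (0.54, 0.34 to 0.80). In each of these 6 pairs all 4 libraries lay on the same side of 1. These 6 were the pairs of cluster 14 whose interval excluded 1. Pair by pair, Ebf2 thus went with Pax2 and Rorb, and Maf with Pax8, inside this cluster as drawn at resolution 1. Only pairs were counted here, so a division into separate sets of nuclei was not tested.

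Over all neuron clusters, 125 pairs of a cluster and 2 factors had at least 20 nuclei observed or expected, and the counting interval lay above 1 in 12 and below 1 in 13 of them. Gbx1 and Sall3 shared 14, 8, 5 and 14 inhibitory nuclei, 41 against 26.2 (1.56, 1.12 to 2.12). Libraries were on both sides of 1 for this pair, from 0.95 to 2.18. In inhibitory cluster 13 Pax2 and Pax8 shared 36 nuclei against 21.6 (1.67, 1.17 to 2.31). In the mixed cluster 0 Lmx1b went with Ebf2 (55 against 27.6) and Pax2 with Pax8 (46 against 22.5), and Lmx1b and Pax2 shared 16 against 29.1. Other pairs there did not follow the sides. Ebf2 with Pax2 had a ratio of 0.91 (0.71 to 1.15) and Ebf2 with Pax8 of 0.90 (0.54 to 1.41), and the excitatory factors Lmx1b and Meis2 had 0.66 (0.46 to 0.92), under 1 in all 4 libraries.

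**Figure D4:**
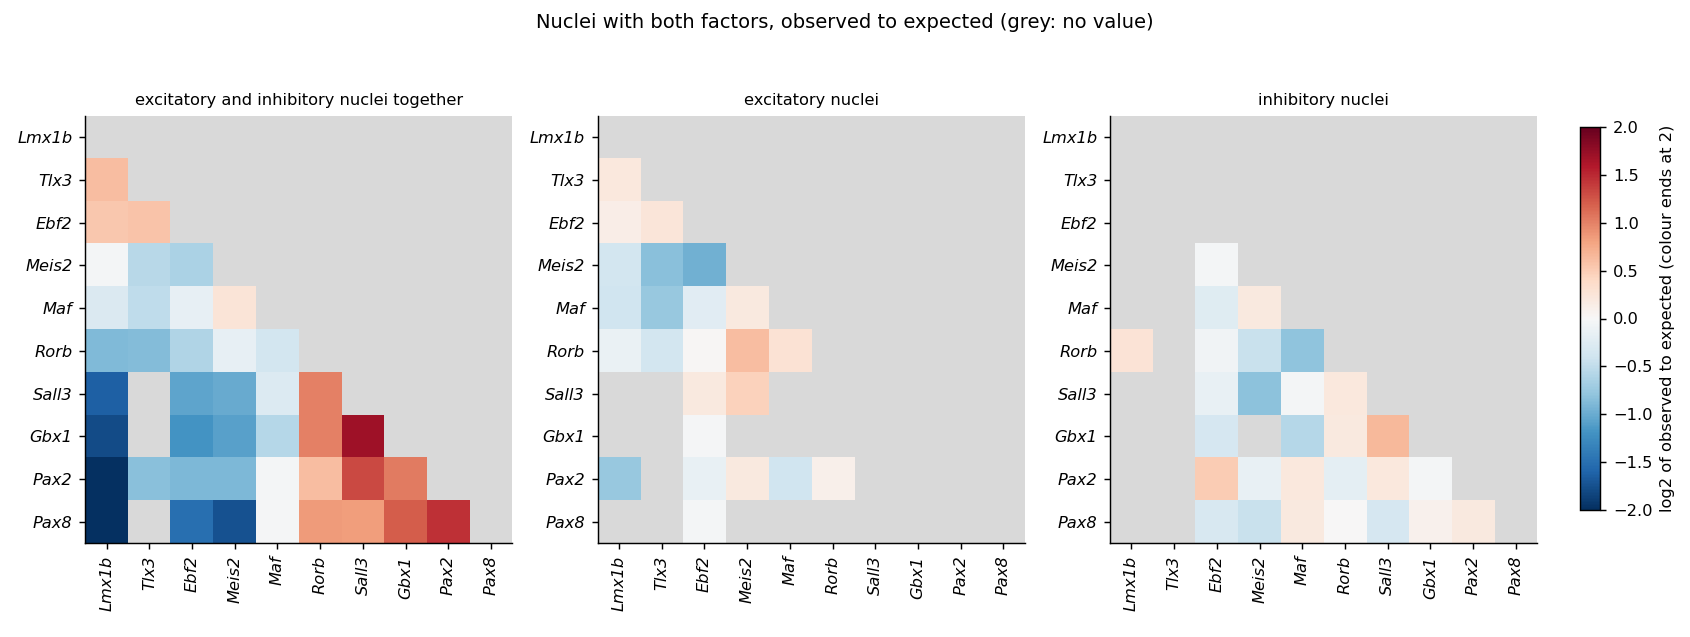
Ratio of observed to expected nuclei for each pair of factors, as log2, within excitatory neurons, within inhibitory neurons and over both, with grey where under 20 nuclei were observed or expected. Colours are strong over both classes, as for Lmx1b with Pax2 at a ratio of 0.20, and weaker within each class.

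Transmitter genes in the same nuclei gave the same order. Of all 48935 thinned neuron nuclei 9.86% held a UMI of Slc17a6 and 18.1% of an inhibitory transmitter gene (Gad1, Gad2, Slc32a1 or Slc6a5). Among nuclei with Lmx1b these shares were 14.4% (13.1 to 15.8) and 11.002% (9.86 to 12.2), and among those with Tlx3 14.9% and 13.1%. Among nuclei with Pax2 they were 5.70% (4.96 to 6.53) and 30.2% (28.6 to 31.7), and Pax8, Gbx1, Sall3 and Rorb had 23.9% to 27.9% with an inhibitory gene. Maf stood between, with 10.8% and 16.5%. These genes named the classes, so the shares describe the nuclei and are not separate support.

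The genotype comparison asked what loss of Gpr37l1 did to the factors in naive cord. In the class where each factor is high, none of the 9 factors passed 1.5-fold between the KO naive and wild type naive libraries, with log2 ratios of -0.55 to 0.14. The differences were in the other class. Among excitatory neurons 3 of 10 factors passed 1.5-fold upwards, against 4.93% of 13989 genes, and 1 passed downwards, against 13.2% (18.1% in either direction). Pax2 was at 10.4 CPM in wild type naive and 29.1 in KO naive, a log2 ratio of 1.49 (1.15 to 1.85), Pax8 had a log2 ratio of 0.67 (0.17 to 1.19) and Sall3 of 0.63 (0.16 to 1.12). Gbx1, from 42 and 55 UMIs, had -0.60 with an interval that held 0 (-1.21 to 0.01).

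Among inhibitory neurons 2 of 9 factors with enough UMIs passed 1.5-fold upwards, against 4.85% of 12297 genes, and 0 downwards, against 11.9% (16.8% in either direction). Meis2 was at 49.2 CPM in KO naive and 19.6 in wild type naive, a log2 ratio of 1.32 (0.98 to 1.68), and Lmx1b had 0.66 (0.05 to 1.30). All 5 factors past 1.5-fold upwards were thus excitatory factors in inhibitory neurons or inhibitory factors in excitatory neurons. With classes set nucleus by nucleus, from transmitter UMIs alone, Meis2 had 0.14, Gbx1 -0.03 and Pax2 0.66.

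Oligodendrocytes showed the factors higher in KO naive as well. There 9 of the 10 had an interval above 0, with a median log2 ratio of 1.06 and a range of 0.45 for Meis2 to 1.63 for Ebf2. The same count and median over all genes were not taken in oligodendrocytes, here or in the comparisons below. Pax2 gave 38 UMIs in wild type naive and 180 in KO naive oligodendrocytes, a log2 ratio of 1.48 (0.97 to 2.03), close to its 1.49 in excitatory neurons. Markers of other cell types differed in both directions. The summed oligodendrocyte markers were at 776, 1079, 794 and 792 CPM in excitatory neurons and 691, 1030, 740 and 730.5 CPM in inhibitory neurons, with none of the 6 at 0. Inhibitory markers in excitatory neurons were at 146, 213, 169 and 150 CPM (none of 5 at 0), and excitatory markers in inhibitory neurons at 405, 551, 429 and 448 CPM (0 or 1 of 6 at 0). The KO naive library was highest in all 4 of these sums. Astrocyte markers were at 152, 245, 230.4 and 259 CPM in excitatory and 211, 292, 262 and 315 CPM in inhibitory neurons (none of 6 at 0), highest in KO SNI. Microglia markers went the other way, from 194 in wild type naive to 148 CPM in KO naive excitatory neurons and from 168 to 134 CPM in inhibitory neurons (none of 6 at 0). The part of these markers in the ratios of the factors was not tested.

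After injury the KO and wild type libraries were closer. None of 10 factors in excitatory and none of 9 in inhibitory neurons passed 1.5-fold between KO SNI and wild type SNI, against 4.79% of 13842 genes (2.42% higher, 2.37% lower) and 4.73% of 12020 genes (2.21% higher, 2.51% lower). The log2 ratios ran from -0.32 for Tlx3 to 0.44 for Pax2 in excitatory neurons and from -0.14 for Rorb to 0.34 for Pax8 in inhibitory neurons. Pax2 in excitatory neurons had an interval of 0.11 to 0.77 and Pax8 in inhibitory neurons of 0.14 to 0.54. In oligodendrocytes the median was 0.04, with 0 of 10 intervals above 0 and 1 below, that of Meis2 at -0.41. Beside this, microglia markers in excitatory neurons were at 194, 148, 230 and 358 CPM and cholinergic markers at 6.32, 6.05, 10.96 and 42.9 CPM, highest in KO SNI, and their part was not tested.

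**Figure D5:**
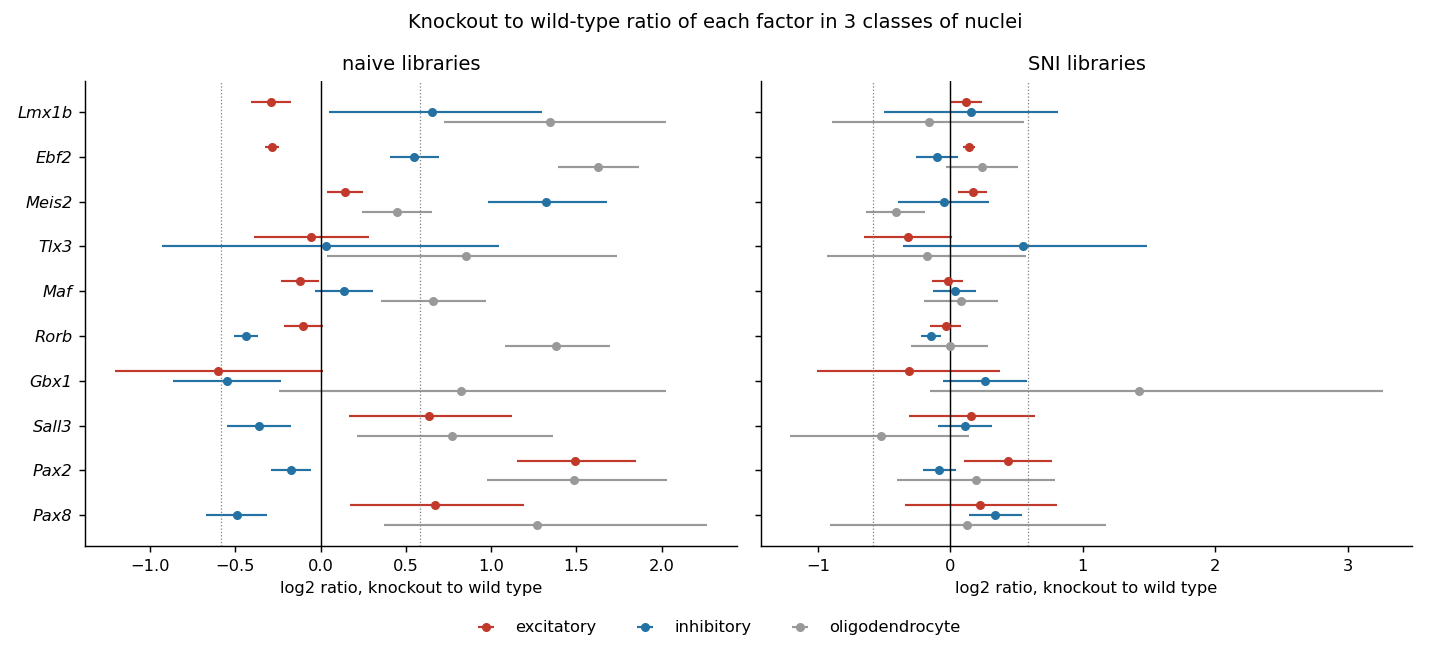
Log2 ratio of the KO to the wild type level of each factor in naive and in SNI libraries, for excitatory neurons, inhibitory neurons and oligodendrocytes, with 95% counting intervals and dotted lines at 1.5-fold. In naive libraries the oligodendrocyte values have a median of 1.06, and in SNI libraries of 0.04.

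The injury comparison used the same 4 libraries and therefore shares each of them with the genotype comparison. In wild type, 0 of 10 factors in excitatory neurons passed 1.5-fold between SNI and naive, against 5.66% of 13514 genes (3.47% higher, 2.19% lower). Ebf2 was at 989 CPM in naive and 781 in SNI, a log2 ratio of -0.34 (-0.39 to -0.29). In inhibitory neurons 1 of 9 passed upwards, against 3.87% of 11772 genes, and 0 downwards, against 2.19% (6.06% in either direction). It was Meis2, from 86 and 142 UMIs, with a log2 ratio of 0.60 (0.20 to 1.00), and 0.42 to 0.79 under the other choices of processing, or 0.10 with classes set nucleus by nucleus. Pax8 was at 107 CPM in naive and 75.5 in SNI inhibitory neurons, -0.50 (-0.70 to -0.30), and Maf at 99.6 and 123, 0.31 (0.12 to 0.49). In wild type oligodendrocytes 4 of 10 factors had intervals above 0 between SNI and naive and 0 below, with a median of 0.40. Meis2 had 0.44 there (0.22 to 0.66) and Maf 0.70 (0.38 to 1.04).

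In the KO, 1 of 10 factors in excitatory neurons passed 1.5-fold downwards, against 1.74% of 14229 genes: Pax2, at 29.1 CPM in naive and 19.1 in SNI, with -0.61 (-0.86 to -0.37). None passed upwards, against 10.9% (12.6% in either direction). In inhibitory neurons Gbx1, at 23.9 CPM in naive and 37.7 in SNI, had 0.66 (0.36 to 0.96), and Tlx3, from 27 and 28 UMIs, had 0.66 with an interval of -0.16 to 1.47; these were 2 of 10, against 9.66% of 12453 genes. Meis2 passed downwards with -0.77 (-1.06 to -0.49), 1 of 10 against 2.43% (12.1% in either direction). With classes set nucleus by nucleus Tlx3 had -0.22 and Meis2 -0.23. Gbx1 was the 1 factor that passed 1.5-fold in its own class in any of the 4 comparisons, 1 of 36 such values, against 10 of 33 in the other class. The own class was set from these same UMIs, so values in the other class rested on fewer UMIs of each factor. Shares over all genes were not computed for these 2 counts, so their contrast is a description only. In KO oligodendrocytes 7 of 10 factors had intervals below 0 between SNI and naive, with a median of -0.72.

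Other genes on the lists showed where these libraries differed. In KO naive against wild type naive excitatory neurons, Slc6a5, the glycine transporter of inhibitory neurons, had a log2 ratio of 1.06 and St18, a leading gene of an oligodendrocyte cluster, of 1.34. Slc17a6 had 0.68 in inhibitory neurons, and Meis1 had 1.29 there, beside 1.32 for Meis2. The 28 laminar factors with enough UMIs in excitatory neurons had a median of 0.30 with 5 upwards and 0 downwards, against 4.93% and 13.2% of all genes, whose median was -0.03. Sst and Nts, peptides of excitatory neurons, had -0.84 and -0.81.

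In the cluster where the summed level of each factor is highest, the KO naive library lay below the wild type naive library for all 10. Each cluster was picked from levels in these same libraries. The share of all genes lower in KO naive in such clusters was not computed, so this is not a trait shown for these factors alone. Sall3 in inhibitory cluster 29 gave 70, 33, 38 and 38 UMIs, a log2 ratio of KO to wild type naive of -1.58 (-2.22 to -0.96). Wild type naive was the library that stood apart, with 313 CPM against 105 to 172 in the others. Rorb in cluster 18 had -0.76 (-0.90 to -0.61), Gbx1 in cluster 18 -0.80 (-1.42 to -0.18), Ebf2 in cluster 12 -0.46 (-0.55 to -0.37) and Maf in cluster 9 -0.33 (-0.47 to -0.19). Lmx1b in cluster 8 had -0.17 with an interval of -0.47 to 0.13. Between the SNI libraries the same clusters gave -0.06 for Sall3, 0.05 for Rorb, 0.15 for Gbx1, 0.02 for Ebf2 and -0.17 for Maf.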

How the data were processed

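Nuclei of the dorsal horn were captured with the 10x Genomics 3' kit, version 3.1, per the labels' protocols. The deposited values are raw UMI counts per gene and barcode, made by the authors with Cell Ranger 7.0.0 per the file headers, and the submitters' processing notes name GRCm38, Seurat 4.3.0 and R 4.3.0. Whether counting used strand is not given in the sources used here. Nuclei with at least 300 genes and at most 5% mitochondrial UMIs were kept, a simulated-doublet score was computed and the top 10% per library were left out (9.62% to 9.99%). Scanpy 1.11.5 clustered the rest on 3000 variable genes without the 10 factors (40 components, 20 neighbours, resolution 1). Clusters were named from marker lists, with limits on the doublet score (0.05) and on the marker difference (0.8) set after cluster markers and factor levels had been seen. Neuron clusters kept out by the doublet score held 1.22%, 2.46%, 1.76% and 3.12% of nuclei, in the order of the report. The factors and gene lists were chosen with earlier results of these data known.

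Counts were summed per class and library, without mitochondrial genes in the totals. A gene entered the class ratio with 200 or more neuronal UMIs and was called at 2-fold in all 4 libraries. It entered a comparison of libraries with 50 or more UMIs over both, and was called at 1.5-fold. A count of 0 was set to 3 UMIs for a fold. Intervals are exact (Poisson, Clopper-Pearson or conditional binomial) at 95%, and cover counting error only. For shares and pairs each nucleus was thinned to 1000 UMIs. Named were the 10 factors, for each of them the 3 genes most like it, and list genes past the call: per list up to 6 a direction for the class ratio and up to 3 a comparison and class with an interval that excludes 0. Scripts were tested on simulated counts, and results were recomputed, where the choice applied to them, with other normalizations, filters, cluster resolutions, doublet treatment and class rules, and for the counts of factors that split the classes and of pairs also with a library left out. Per-library depth was 35197290 to 69572640 UMIs.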

Additional observations from a re-analysis of the deposited data

Results flagged for a closer look

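For 7 values the log2 ratio of SNI to naive had opposite signs in the wild type and KO libraries, with both counting intervals excluding 0. Enough UMIs for both ratios were held by 10 factors in excitatory and 9 in inhibitory neurons. The share of all genes that meet this rule was not computed, so the count is a description and may not be particular to the factors. Each group was 1 library, so these differences between genotypes were not tested, and every KO ratio uses the KO naive library, which was highest of the 4 in oligodendrocyte markers and in markers of the opposite transmitter class, and lowest in microglia markers. In excitatory neurons, Lmx1b had -0.13 in wild type and 0.28 in KO, a difference of 0.41. Ebf2 had -0.34 and 0.09 there, a difference of 0.43. Pax2 had 0.44 and -0.61 in excitatory neurons, where it is near background, a difference of -1.06. In inhibitory neurons, Pax8 had -0.50 and 0.33, a difference of 0.83. Meis2 had 0.60 and -0.77, a difference of -1.37, the largest of the 7. The inhibitory level of Meis2, 19.6 to 49.2 CPM, was below its 71.1 to 97.0 CPM in oligodendrocytes in every library. With classes set nucleus by nucleus these Meis2 ratios were 0.10 and -0.23. Rorb had -0.16 and 0.13, a difference of 0.29, and Sall3 had -0.26 and 0.21, a difference of 0.47.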

How the results depend on the processing

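No paired analysis was possible because each group had 1 library, and for the same reason no library could be left out of the genotype and injury ratios. Of 320 values of the class ratio of single factors under the alternatives 263 moved by less than their counting interval, of 800 log2 ratios between libraries 747, and of 752 ratios of observed to expected nuclei 629. Some of these values could not move. Dropping the minimum (40 class ratios), a 2-fold call and a minimum of 20 UMIs (80 log2 ratios each) changed only the calls. For pairs, the filter of at least 1000 UMIs and 500 genes (94 ratios) kept the same thinned nuclei. With classes set nucleus by nucleus, 1 factor was higher in excitatory and 3 in inhibitory neurons (in place of 4 and 5), and the counts were 3 higher and 0 lower for KO to wild type naive, 1 lower for KO to wild type SNI, 2 higher for SNI to naive in wild type and 1 higher in KO. That setting also gave 1 pair above expectation within excitatory and 1 within inhibitory neurons and 0 below over both classes, and turned Tlx3 in KO inhibitory neurons after SNI to -0.22. For KO to wild type naive (5 higher, 1 lower), the number higher was 2 at a 2-fold call, 2 at resolution 2 and 3 with doublets kept. The number lower was 0 at a 2-fold call, with cluster shares held equal, with median of ratios size factors and with nuclei of at least 1000 UMIs and 500 genes, 2 with doublets kept and 3 with libraries clustered separately. For KO to wild type SNI (0 and 0), 1 was higher with doublets kept. For SNI to naive in KO (2 higher, 2 lower), the number higher was 0 at 2-fold and with libraries clustered separately and 1 with cluster shares held equal, at resolution 2 and with doublets kept; the number lower was 0 at 2-fold and 1 at resolutions 0.5 and 2, with the stricter nucleus filter and with doublets kept. For SNI to naive in wild type (1 higher), it was 0 at 2-fold, with cluster shares held equal, at resolution 0.5, with median of ratios size factors, with the stricter filter and with doublets kept, and 2 with libraries clustered separately. For pairs over both classes (2 above, 2 below), 5 were above without thinning and 1 at 500 UMIs, and 2 pairs were above within excitatory neurons without thinning. With a library left out, 2 to 5 pairs were below over both classes (5 without KO naive, 4 without wild type naive or wild type SNI) and 0 to 1 within excitatory neurons (1 without KO naive). Equal cluster shares and left-out libraries were chosen after seeing the data. The causes of these moves were not tested. Depth limited Tlx3 and Gbx1 most, with 729 and 850 neuronal UMIs.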

Other observations

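In the mixed neuron cluster 0, which belonged to neither class, some pairs of factors were found together more or less often than the product of their shares. Among 16886 thinned nuclei, Pax8 and Meis2 were found together in 8 against 39.98 expected, a ratio of 0.20 (0.09 to 0.39), and Pax2 and Meis2 in 81 against 149, a ratio of 0.55 (0.43 to 0.68). Ebf2 and Maf shared 80 nuclei against 60.7 (1.32, 1.05 to 1.64), the opposite direction to inhibitory cluster 14, and Ebf2 and Meis2 shared 101 against 138 (0.73, 0.59 to 0.89). All 4 libraries lay on the same side of 1 for each of these 4 pairs. Of the nuclei of cluster 0, 59.1% to 65.1% held a UMI of none of the 10 factors.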
